A study of Drosophila melanogaster with 16 samples.

Results

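The genes described here encode integrins and the proteins that tie them to the cytoskeleton, cadherins and catenins, extracellular matrix proteins with their proteases and inhibitors, and adhesion proteins of the Fasciclin and immunoglobulin type. They were chosen by name, as a list of 41 adhesion and matrix genes, with earlier results of these data known. Of these, 34 carried a gene symbol on the array and 32 could be tested, out of 8841 named genes tested in all. No probe carried the symbols Zasp52, Cad99C, ft, Ndg, Mmp1, Fas2 or Fas3, and those genes were not analysed here.

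Integrins are receptors made of an alpha and a beta chain that bind matrix proteins such as laminins outside the cell and, through talin and its partners, actin inside it. Cadherins join neighbouring cells and are linked to actin by catenins. Both receptor families need divalent metal ions to bind their partners, and EDTA, the chelator used here to activate Notch, takes up those ions. By pulling calcium away from the receptor it also lets the outer part of Notch come off, after which presenilin cuts the rest. With EDTA on one side of a ratio only, an effect through Notch and an effect of the chelator on adhesion cannot be told apart.

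The arrays set RNA of Notch-activated cells, which had spent 30 minutes in 2 mM EDTA in buffered saline, against a comparison RNA labelled with the other dye. DmD8 is a Drosophila cell line derived from imaginal disc, obtained from a stock centre, and Kc is a Drosophila line derived from embryos. In Kc the comparison RNA was from control cells without EDTA. In DmD8 it was either from control cells in buffered saline alone or from cells kept overnight in 300 µM DFK-167, a presenilin inhibitor, before EDTA: the deposited values of both experiments are the same to within 4.87e-08, so they were counted once, and which experiment they come from is not settled. There were 11 distinct arrays, 5 of DmD8 and 6 of Kc, each with values for 13353 to 15638 of 17258 probes. Arrays 1 to 3 of each line had activated RNA in Cy5, and the later arrays were dye swaps with activated RNA in Cy3.

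Values are log ratios of activated over comparison RNA, as deposited, with a positive value read as higher after activation. The labels do not state this direction, though the order of the dyes and the E(spl) genes make it likely. The base of the log is not given in the sources and was taken as 2, so no folds are given. Each estimate is the mean of both dye orientations ± the standard error of a limma fit over all arrays, and a gene is said to rise or fall where its p, adjusted by the Benjamini-Hochberg method over 12952 genes and unnamed probes (together called features), was under 0.05. Each experiment had 3 biological replicates, so some arrays share RNA and the p-values over arrays are too small. Beside them stand values with each swap averaged with a replicate. The swaps were averaged in the order of their numbers (swap 4 with array 1, 5 with 2, 6 with 3) or in each of 36 possible pairings. A fit that leaves out 1 array can still hold the same RNA on another array. The known Notch target E(spl)m7-HLH, a basic helix-loop-helix repressor, rose in both lines, by 1.25 ± 0.16 in DmD8 and 1.21 ± 0.14 in Kc (limma, adjusted p = 0.000625 and 0.00025). Its relatives differed between the lines: E(spl)m3-HLH was at 1.24 ± 0.13 in DmD8 and 4.17 ± 0.12 in Kc, a difference of -2.93 ± 0.18 (limma, adjusted p = 4.71e-06). E(spl)mbeta-HLH was at 0.04 ± 0.26 in DmD8 and 5.25 ± 0.23 in Kc, a difference of -5.21 ± 0.35 (limma, adjusted p = 7.29e-06). E(spl) genes were used to read the sign, so this is not an independent check of it.

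In DmD8, 5 of 32 tested adhesion and matrix genes rose and 1 fell. The genes that rose were Reck, mew, shg, wb and scb, and the gene that fell was rhea. These 6 are 18.8% of the tested members, against 7.24% of all features and 8.89% of named genes. Higher calls made up 3.08% of features and lower calls 4.16%. The median estimate was 0.02 over the members and -0.04 over all features, and 17 of 32 members were positive, against 41.6% of features. Under every one of the 36 pairings no member passed, against 0.494% of features, and by number order mew and Reck passed. With no dye term for the array left without a swap, mew, shg and Reck passed under all 36 pairings. The same sign on every DmD8 array was seen in 7 members, against 14.6% of features: the genes above except wb, with Cad87A and Mmp2.

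In Kc, 8 of 32 members rose: LanA, kug, Tig, mew, LanB2, Fas1, alpha-Cat and LanB1. No member fell. Timp, at -0.40 ± 0.13, was the negative member nearest to the threshold (limma, unadjusted p = 0.0123, adjusted p = 0.0818). The 8 make up 25.0% of the tested members, against 11.9% of all features and 14.9% of named genes, and higher calls made up 7.1% of features and lower calls 4.81%. The same 8 were the members with 1 sign on every Kc array, against 12.8% of features. The median was 0.09, against 0.01 over all features, and 24 of 32 members were positive, against 53% of features. With each array centred on its median, alpha-Cat, LanB1, LanB2 and Fas1 no longer passed (limma, adjusted p from 0.0508 to 0.0741), and without a dye term these and mew did not. With swaps averaged, no Kc member passed by number order, where 10 had an unadjusted p under 0.05, and none passed under every pairing, against 1.84% of features. One gene, mew, rose in both lines, where 1.81% of features passed in both, and 19 members passed in neither line nor in the difference between them.

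**Figure D1:**
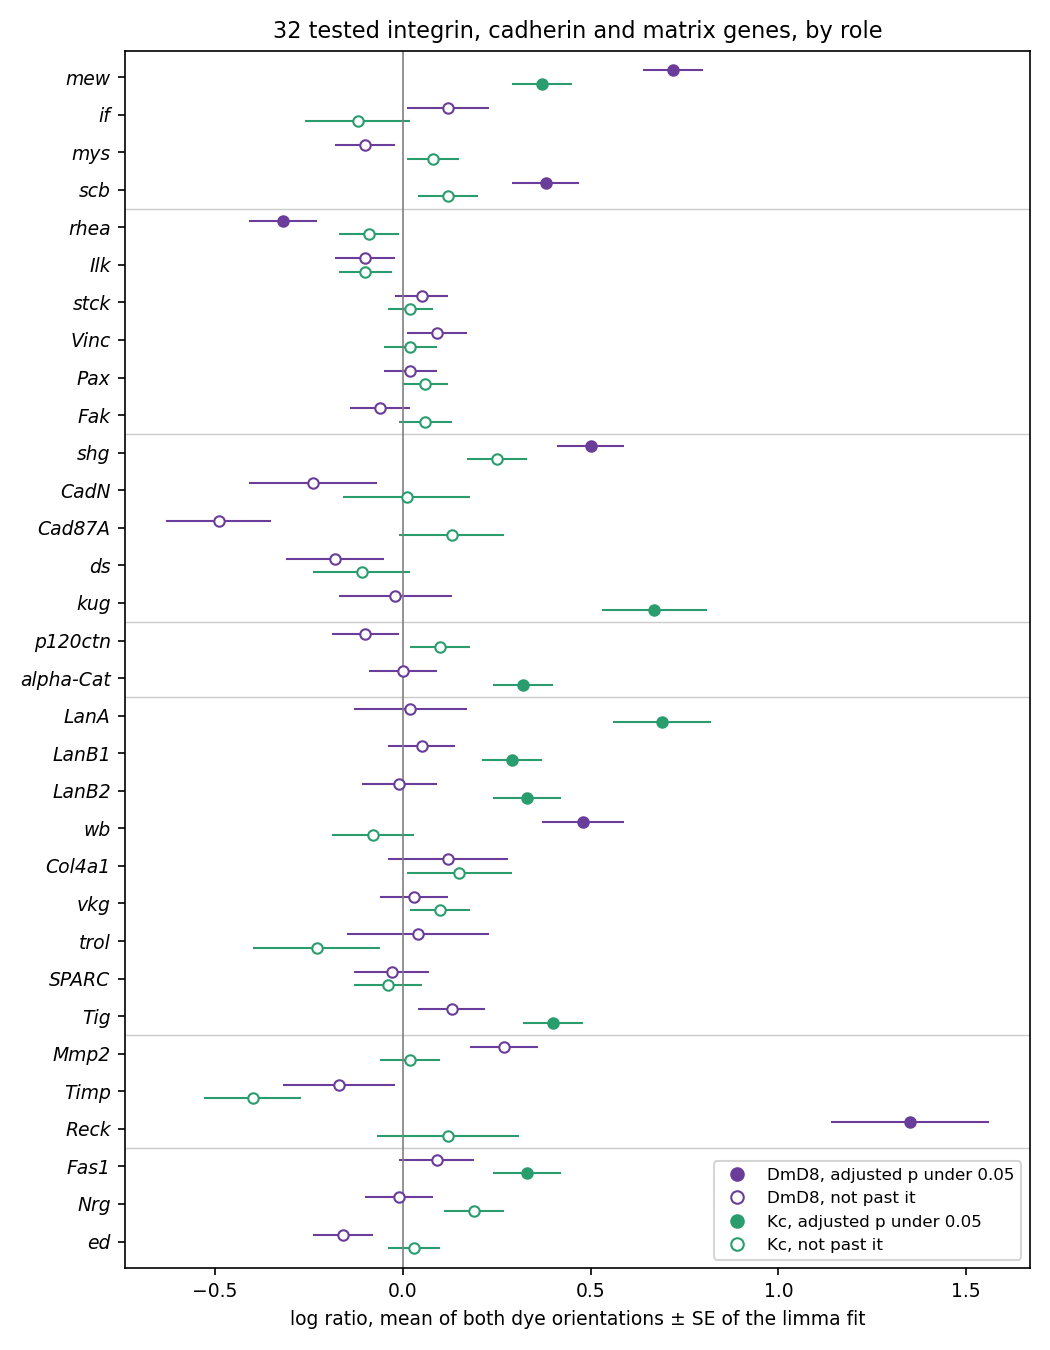
Estimates for the 32 tested members, in rows by role, with log ratio of activated over comparison RNA on the x axis and bars of 1 standard error of the limma fit. DmD8 (purple) and Kc (green) have a colour each, and filled symbols mark an adjusted p under 0.05; Reck in DmD8, at 1.35, stands farthest to the right.

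Among the integrin chains, mew, the alphaPS1 chain known for binding laminin, rose in both lines. On the DmD8 arrays mew stood at 0.75, 0.37 and 0.42 with activated RNA in Cy5 and at 0.98 and 0.87 in the swaps. On the Kc arrays it stood at 0.12, 0.37 and 0.26 in Cy5 and at 0.44, 0.34 and 0.66 in the swaps. All 11 values were positive, and array 1 of Kc was the lowest. The estimates were 0.72 ± 0.08 in DmD8 and 0.37 ± 0.08 in Kc (limma, adjusted p = 0.000414 and 0.00856). By number order the DmD8 value was 0.74 ± 0.12 (limma, adjusted p = 0.0321) and the Kc value 0.37 ± 0.10 (adjusted p = 0.117), and mew passed in 35 pairings in DmD8 and 16 in Kc. Its difference between the lines, 0.35 ± 0.11 for DmD8 minus Kc, did not pass (limma, adjusted p = 0.0699), but passed with each array centred on its median (0.41, adjusted p = 0.0448). The gene had 2 probes, which gave 0.75 and 0.69 in DmD8 and 0.37 and 0.36 in Kc.

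The alphaPS3 chain gene scb rose in DmD8 by 0.38 ± 0.09 (limma, adjusted p = 0.0233). Its DmD8 values were 0.64, 0.18 and 0.35 in Cy5 and 0.52 and 0.20 in the swaps, all positive with a wide range. Without array 1 or array 4 the gene no longer passed, with an adjusted p up to 0.182, and by number order adjusted p = 0.25. In Kc scb ran from -0.09 to 0.23 and was estimated at 0.12 ± 0.08. The partner of all these alpha chains, the betaPS chain gene mys, was estimated at -0.10 ± 0.08 in DmD8 and 0.08 ± 0.07 in Kc (limma, adjusted p = 0.541 and 0.57). The alphaPS2 chain gene if, whose product is known for binding tiggrin, was positive in Cy5 and negative in the swaps in both lines and was measured on 4 arrays in Kc. The second beta chain gene, Itgbn, was untested, with -0.50 on both DmD8 arrays that held a value and a range from -1.17 to 0.36 on the Kc arrays.

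Of 6 genes for the proteins that join integrins to actin, 1 passed in DmD8 (16.7%, against 7.24% of features called). In Kc none passed, against 11.9% of features, and none had an unadjusted p under 0.05 (limma). The gene that passed was rhea, which encodes talin, the protein that binds the tail of the beta chain. Its DmD8 values were -0.45, -0.53 and -0.35 in Cy5 and -0.13 and -0.25 in the swaps, so all 5 were negative. The estimate was -0.32 ± 0.09 (limma, adjusted p = 0.0453). The call was lost when any of the 5 arrays was left out, with estimates from -0.35 to -0.29 and adjusted p from 0.064 to 0.205, and by number order adjusted p = 0.288. It was also lost with each array centred on its median (-0.28, adjusted p = 0.062). In Kc rhea ran from -0.50 to 0.19, with array 1 lowest. The other members of the group were Ilk (integrin-linked kinase), stck (PINCH, a partner of that kinase), Vinc (vinculin), Pax (paxillin) and Fak (focal adhesion kinase). Their estimates lay between -0.10 and 0.09 in both lines, but Ilk, Vinc and Pax differed between the dye orientations, as described further on.

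Of 5 cadherin genes, shg rose in DmD8 and kug rose in Kc. The gene shg encodes the E-cadherin of adherens junctions. In DmD8 it stood at 0.62, 0.65 and 0.56 in Cy5 and at 0.34 and 0.44 in the swaps, so all 5 arrays were well above 0. The estimate was 0.50 ± 0.09 (limma, adjusted p = 0.00545). It was 0.0505 without array 5, and adjusted p = 0.114 by number order. In Kc shg stood at 0.77, 0.59 and 0.12 in Cy5 and at -0.01, 0.03 and -0.02 in the swaps: the Cy5 values were all positive and the swaps lay near 0, and the estimate of 0.25 ± 0.08 did not pass (limma, adjusted p = 0.07). Without Kc array 3 the value was 0.34, with adjusted p = 0.0122.

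The atypical cadherin gene kug encodes Fat2, which is known from the follicle cells of the ovary. In DmD8 kug was 0.56, -0.04 and 0.45 in Cy5 and -0.34 and -0.39 in the swaps, with an estimate of -0.02 ± 0.15. The Kc values of kug were 1.21, 0.69 and 0.30 in Cy5 and 1.10, 0.58 and 0.12 in the swaps, all positive. They fell from array 1 to array 3 and again from array 4 to array 6. The estimate was 0.67 ± 0.14 (limma, adjusted p = 0.00855; by number order 0.100), and it passed whichever array was left out. The difference of -0.69 ± 0.21 between the lines just missed the threshold (limma, adjusted p = 0.0533) and passed without Kc array 3 or Kc array 6 (adjusted p = 0.0309 and 0.0276).

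The other 3 cadherin genes passed in neither line in the fit over both. Cad87A was negative on all 5 DmD8 arrays, from -0.70 to -0.24, with an estimate of -0.49 ± 0.14 (limma, adjusted p = 0.0609). With DmD8 fitted alone it passed (adjusted p = 0.0256). In Kc it was at -0.74 on array 2 and from 0.13 to 0.37 on the other 4 arrays with a value. The N-cadherin gene CadN and ds, whose product is the binding partner of the Fat cadherin, had estimates of -0.24 ± 0.17 and -0.18 ± 0.13 in DmD8 and of 0.01 ± 0.17 and -0.11 ± 0.13 in Kc; ds had values on 3 arrays of each line.

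Of the catenin genes, alpha-Cat, whose product links the cadherin complex to actin, rose in Kc. In DmD8 its values lay on both sides of 0, at 0.07, -0.20 and -0.33 in Cy5 and 0.10 and 0.20 in the swaps. In Kc it stood at 0.44, 0.29 and 0.07 in Cy5 and at 0.58, 0.26 and 0.26 in the swaps, with an estimate of 0.32 ± 0.08 (limma, adjusted p = 0.0232; by number order 0.178). Array 3 was lowest. Without array 1, 2 or 4 it no longer passed, with an adjusted p up to 0.0961. The gene p120ctn, for a catenin that binds next to the membrane, passed in neither line.

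Of 9 matrix protein genes, 1 rose in DmD8 (11.1%, against 7.24% of features called) and 4 rose in Kc (44.4%, against 11.9%). Laminins are trimers of an alpha, a beta and a gamma chain, and Drosophila has the alpha chain genes LanA and wb with single genes for the beta chain (LanB1) and the gamma chain (LanB2). In DmD8 the gene that rose was wb, and in Kc LanA, LanB1 and LanB2, the chains of 1 laminin, and Tig rose.

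In DmD8 the chains of that laminin were estimated at 0.02 ± 0.15 for LanA, 0.05 ± 0.09 for LanB1 and -0.01 ± 0.10 for LanB2. There LanA and LanB1 were positive on every Cy5 array and negative in the swaps. The values of LanA were 0.19, 0.48 and 0.08 in Cy5 and -0.35 and -0.07 in the swaps. In Kc LanA stood at 1.42, 0.67 and 0.54 in Cy5 and at 1.02, 0.36 and 0.12 in the swaps. LanB1 stood at 0.34, 0.39 and 0.04 in Cy5 and at 0.43, 0.37 and 0.19 in the swaps. LanB2 stood at 0.77, 0.27 and 0.25 in Cy5 and at 0.46, 0.08 and 0.12 in the swaps. All the values of the 3 chains were positive, and the arrays of a single orientation were far apart, most of all for LanA. The estimates were 0.69 ± 0.13 for LanA, 0.29 ± 0.08 for LanB1 and 0.33 ± 0.09 for LanB2 (limma, adjusted p = 0.00623, 0.0344 and 0.0346). LanA passed whichever array was left out. LanB1 was lost without array 1, 2, 4 or 5, with an adjusted p up to 0.115, and LanB2 without array 1, 4, 5 or 6, with an adjusted p up to 0.135. By number order none of the 3 passed (limma, adjusted p = 0.090 for LanA, 0.228 for LanB1 and 0.232 for LanB2).

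The difference between the lines, DmD8 minus Kc, did not pass for any of the 3 chains, and came nearest for LanA at -0.67 ± 0.20 (limma, adjusted p = 0.0529). That difference passed without Kc array 3 or Kc array 6 (limma, adjusted p = 0.0397 and 0.0374). In 8 of 27 members with a value on every Kc array, arrays 1 and 4 were the highest of their orientation, against 20% of features. Of the genes that rose in Kc, LanA, LanB2, kug, alpha-Cat and Fas1 were among them, and LanB1, Tig and mew were not. The pattern was looked for after the values were seen.

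**Figure D2:**
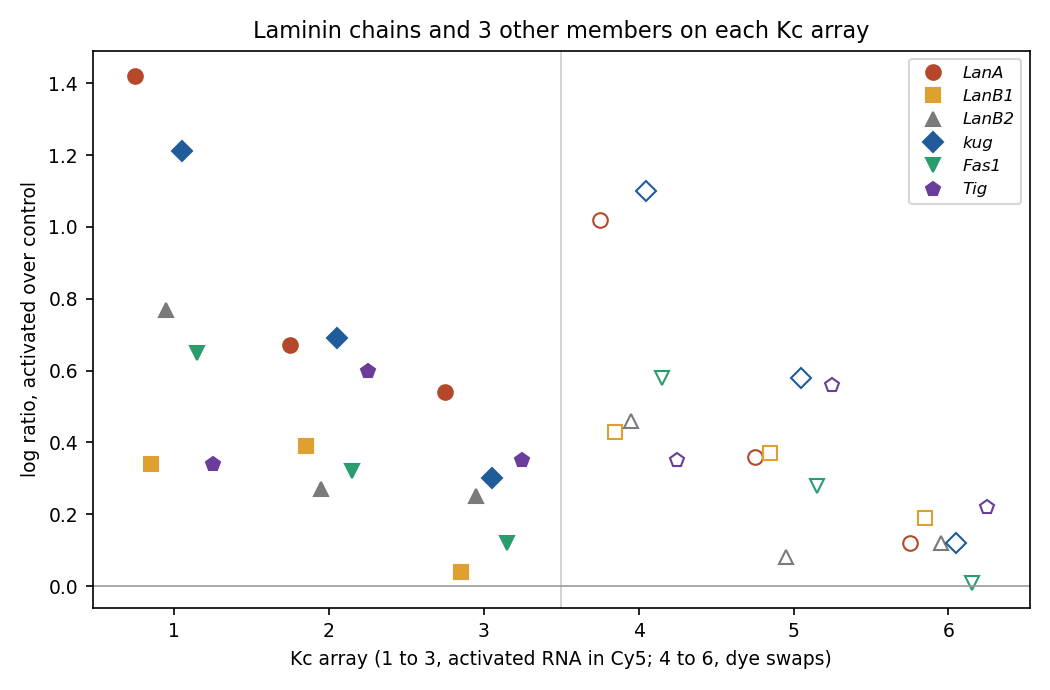
Log ratio of activated over control RNA, on the y axis, on each of the 6 Kc arrays for the 3 laminin chains LanA, LanB1 and LanB2 and for kug, Fas1 and Tig. Filled points have activated RNA in Cy5 and open points are dye swaps; all points lie above 0, and LanA and kug are farthest up on arrays 1 and 4.

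The laminin alpha chain gene wb stood at 0.72, 1.12 and 0.52 in Cy5 and at -0.10 and 0.45 in the swaps of DmD8. Array 4 was the only one below 0. The estimate was 0.48 ± 0.11 (limma, adjusted p = 0.028; by number order 0.164), and without array 1, 2 or 5 it no longer passed, with an adjusted p up to 0.218. It was lost, too, without a dye term (0.54, adjusted p = 0.0651). In Kc wb stood at 0.04, 0.07 and -0.33 in Cy5 and at -0.11 and -0.07 in the 2 swaps with a value, all lower than the DmD8 values other than that of array 4.

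Tig, the gene for tiggrin, a matrix protein that integrins bind, rose in Kc. In DmD8 Tig was at 0.13 ± 0.09, with 1 negative array. In Kc it stood at 0.34, 0.60 and 0.35 in Cy5 and at 0.35, 0.56 and 0.22 in the swaps, so the orientations were alike. The Kc estimate was 0.40 ± 0.08 (limma, adjusted p = 0.00617, and 0.117 by number order). It passed whichever single array was left out, but not without arrays 2 and 5 together (0.31, limma, adjusted p = 0.0755). The collagen IV chain genes Col4a1 and vkg, the perlecan gene trol and SPARC, for a protein that binds collagen IV, passed in neither line, with estimates from -0.23 for trol in Kc to 0.15 for Col4a1 in Kc. Some of these were far from steady between arrays: Col4a1 was at 1.03 on DmD8 array 2 and at -0.38 on array 4, and trol was at -1.63 on Kc array 2.

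Among the proteases and inhibitors of the matrix, Reck rose in DmD8, by more than any other member. In mammals its product is a membrane-anchored protein that inhibits matrix metalloproteases. On the DmD8 arrays Reck stood at 2.49, 1.34 and 0.68 in Cy5 and at 1.61 and 0.78 in the swaps, so every array was positive and array 1 was highest. The estimate was 1.35 ± 0.21 (limma, adjusted p = 0.00248). It passed whichever array was left out, was 1.56 ± 0.22 by number order (adjusted p = 0.0202) and passed in 28 of 36 pairings. In Kc it stood at -0.31, -0.53 and -0.26 in Cy5 and at 0.87, 0.30 and 0.67 in the swaps. The Kc values had opposite signs in the dye orientations, and the mean of both was 0.12 ± 0.19.

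Mmp2, a membrane-bound matrix metalloprotease gene, was positive on all 5 DmD8 arrays, from 0.09 to 0.48, with an estimate of 0.27 ± 0.09 that did not pass (limma, adjusted p = 0.0983). In Kc it was at 0.02 ± 0.08. Timp, for the tissue inhibitor of metalloproteases, was at -0.17 ± 0.15 in DmD8. In Kc Timp stood at -0.67, -1.62 and -0.88 in Cy5 and at -0.13, 0.20 and 0.71 in the swaps, and of the fits that left out 1 array, the one without array 6 passed (-0.51, limma, adjusted p = 0.0388).

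Of 3 tested genes of the Fasciclin and immunoglobulin type, Fas1 rose in Kc (33.3%, against 11.9% of features called). Its product, Fasciclin 1, binds like molecules on other cells. In DmD8 Fas1 ran from -0.04 to 0.15. In Kc it stood at 0.65, 0.32 and 0.12 in Cy5 and at 0.58, 0.28 and 0.01 in the swaps, all above 0. The values fell from array 1 to array 3 and again from array 4 to array 6. The estimate was 0.33 ± 0.09 (limma, adjusted p = 0.034; by number order 0.240), and without array 1, 2, 4 or 5 it no longer passed, with an adjusted p up to 0.134. Neuroglian, the L1-type protein encoded by Nrg, and Echinoid, encoded by ed, had estimates of -0.01 ± 0.09 and -0.16 ± 0.08 in DmD8 and of 0.19 ± 0.08 and 0.03 ± 0.07 in Kc. The Echinoid relative fred was untested, with -0.12 and 0.04 on 2 DmD8 arrays and -0.20, -0.21 and -0.23 on 3 Kc arrays.

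**Figure D3:**
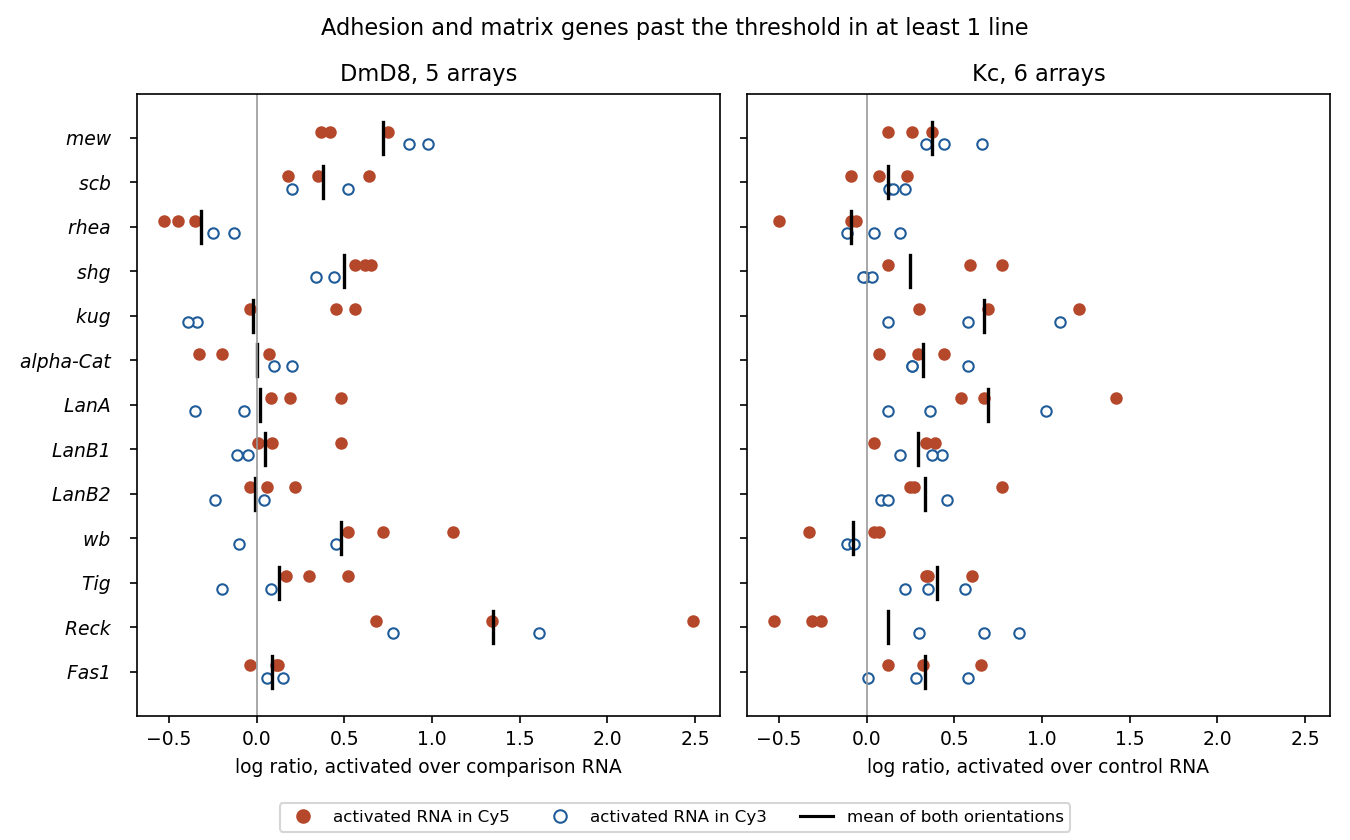
Log ratio of activated over comparison RNA, on the x axis, on every array for the 13 members past the threshold in DmD8 or in Kc. Filled points have activated RNA in Cy5, open points are dye swaps and the bar is the mean of both orientations; mew lies above 0 on all 11 arrays, while Reck in Kc changes sign with the dye.

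The difference between the lines, DmD8 minus Kc, passed for 2 of 32 members, or 6.25%, against 10.9% of all features and 13.5% of named genes. Both differences were positive, where higher calls made up 4.42% of features and lower calls 6.51%. The difference was positive in 13 members, against 42.5% of features, with a median of -0.07 over the members and -0.06 over all features. They were Reck, at 1.23 ± 0.28 (limma, adjusted p = 0.0175), and wb, at 0.56 ± 0.16 (adjusted p = 0.0482). Reck no longer passed without DmD8 array 4 (1.02, adjusted p = 0.0924) and had an adjusted p of 0.0646 by number order. The call for wb held in 2 of 11 fits that each left out 1 array, with estimates from 0.43 to 0.70 and an adjusted p up to 0.163. Without a dye term neither passed (1.26 for Reck and 0.62 for wb, adjusted p = 0.0645 and 0.127). Under every pairing no member passed, against 0.772% of features. LanA, kug and alpha-Cat had estimates near 0 in DmD8, with values on either side of 0, and rose in Kc. They were not shown to differ between the lines. If the DmD8 values are those of the DFK-167 experiment, EDTA was on both sides of the DmD8 ratio. In Kc it was on the activated side only. A difference between the lines and one between the comparison RNAs therefore cannot be told apart.

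Many members changed sign with the dye, as did many of all features. In 8 of 32 members the sign was opposite between the orientations on every array of both lines, against 9.72% of features: if, Ilk, Vinc, Pax, ds, p120ctn, vkg and ed. Taken by line it was opposite in 11 members in DmD8 and 10 in Kc, against 27.5% and 20.2% of features. Ilk stood at 0.20, 0.10 and 0.39 in Cy5 and at -0.59 and -0.26 in the swaps of DmD8. In Kc it stood at 0.26, 0.22 and 0.40 in Cy5 and at -0.52, -0.37 and -0.61 in the swaps. Pax ran the other way, at -0.05, -0.21 and -0.36 in Cy5 and 0.25 and 0.23 in the swaps of DmD8, and at -0.22, -0.13 and -0.22 in Cy5 and 0.33, 0.25 and 0.32 in the swaps of Kc.

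The dye term, the part of the log ratio that changes sign with the dye, passed for 7 members in DmD8, where 17.1% of features passed, and for 9 in Kc, where 20% did. It was 0.33 ± 0.08 in DmD8 and 0.40 ± 0.07 in Kc for Ilk (limma, adjusted p = 0.0221 and 0.00656), and -0.79 ± 0.17 in Kc for CadN (adjusted p = 0.0138). Across the 32 members it correlated at r = 0.76 between the lines, and at 0.75 across all features. The mean of the orientations correlated at 0.17 across the members and at -0.00 across all features. These are correlations across genes, which share their arrays and are not replicates. The deposited swaps were taken as already turned to activated over comparison RNA, which no source states. In Kc E(spl)mbeta-HLH was at 6.09, 4.66 and 4.75 in Cy5 and at 6.51, 4.55 and 4.92 in the swaps. E(spl)m3-HLH lay between 3.92 and 4.55 on the 6 Kc arrays, and in DmD8 was at 1.31, 0.87 and 0.33 in Cy5 and at 1.80 and 1.49 in the swaps. As deposited, all these values were positive with either dye. Among members no dye term was larger in size than that of CadN in Kc, at -0.79. With unturned swaps the Kc values of these E(spl) genes would cancel in the mean and stand as dye terms of their own size. Under that other reading the members' dye terms and means would change places: Ilk, p120ctn, vkg and ed would be higher after activation in both lines and Vinc and Pax lower, and none of the rises, falls and differences of members given above would pass.

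**Figure D4:**
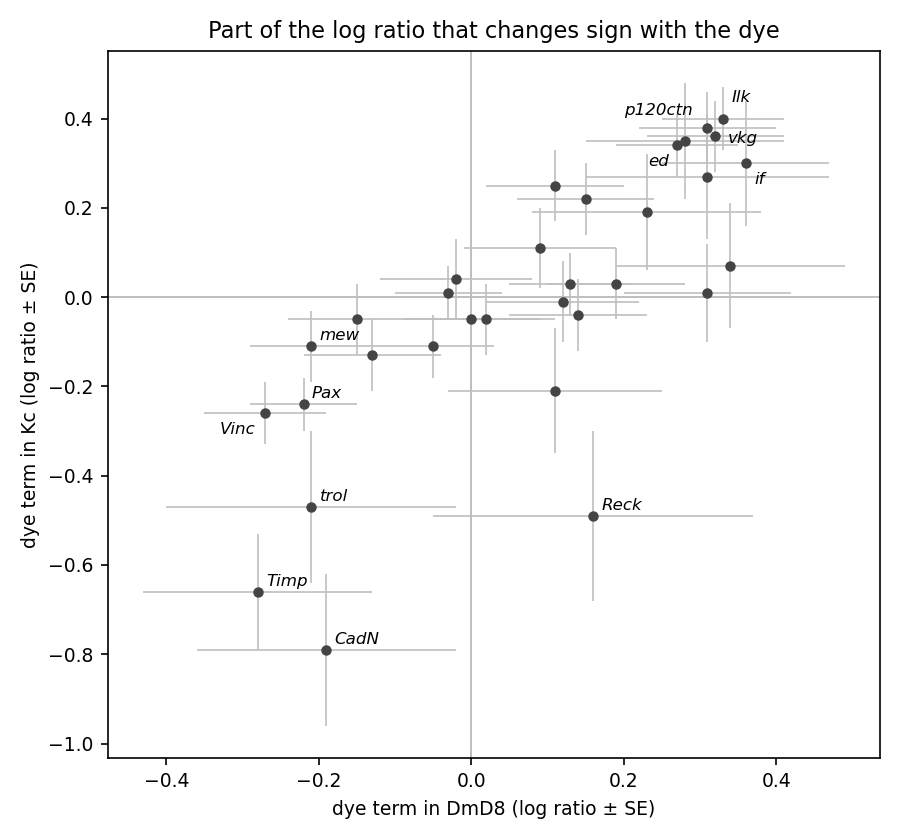
Dye term in DmD8 on the x axis against dye term in Kc on the y axis, in log ratio with bars of 1 standard error, for the 32 tested members. Most members with a large term in one line have it with the same sign in the other, and Reck, at 0.16 in DmD8 and -0.49 in Kc, does not.

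Other genes of the same systems, on lists not chosen by their values here but with earlier results of these data known, had more calls in Kc than in DmD8, as had all features, of which 7.24% passed in DmD8 and 11.9% in Kc. Of 14 other integrin adhesion genes, 1 rose and 1 fell in DmD8 (14.3% called), and 3 rose and 1 fell in Kc (28.6%). The gene by, for the actin-linked protein tensin, rose in both lines, by 0.44 ± 0.10 in DmD8 and 0.34 ± 0.09 in Kc (limma, adjusted p = 0.0219 and 0.031), and passed in neither by number order (adjusted p = 0.132 and 0.173). Fit2 encodes kindlin, a protein that activates integrins together with talin. In DmD8 Fit2 was at 0.15 ± 0.08. It fell in Kc by 0.78 on the log ratio scale, with values of -0.76, -0.50 and -0.57 in Cy5 and -0.99, -0.79 and -1.08 in the swaps (limma, adjusted p = 3.89e-05), and passed in all 36 pairings. The difference of 0.93 ± 0.10 passed (adjusted p = 0.000238; 0.0386 by number order). The docking protein gene p130CAS fell in DmD8 (-0.39 ± 0.09, limma, adjusted p = 0.0231) and rose in Kc (0.41 ± 0.08, adjusted p = 0.00764), a difference of -0.80 ± 0.12 (adjusted p = 0.00214; 0.0417 by number order). By number order neither the fall in DmD8 nor the rise in Kc passed (adjusted p = 0.12 and 0.0837). Its mean was not steady over the dyes: in DmD8 the swaps were at -0.91 and -0.90 against -0.02, -0.07 and 0.45 in Cy5. In Kc the swaps were at -0.00, 0.29 and -0.07 against 0.64, 0.82 and 0.76 in Cy5. Pvr, a receptor tyrosine kinase gene, was at 0.29 ± 0.07 in Kc (limma, adjusted p = 0.0236; 0.187 by number order) and passed in none of the 36 pairings.

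Of 10 other cadherin and adherens junction genes, none passed in DmD8 (limma; 3 had an unadjusted p under 0.05) and 3 rose in Kc (30.0%). They were pyd, for the junction scaffold related to mammalian ZO-1 (0.75 ± 0.09, limma, adjusted p = 0.000416), cno, for the afadin relative Canoe (0.46 ± 0.08, adjusted p = 0.00283), and Nrt, for the adhesion protein neurotactin (0.34 ± 0.10, adjusted p = 0.039). The values of pyd lay between 0.53 and 1.04 on the 6 Kc arrays, and it passed in all 36 pairings. By number order cno and Nrt did not pass (limma, adjusted p = 0.0711 and 0.172).

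Of 20 other matrix and matrix-processing genes, 1 rose in DmD8 (5.00%, under the share of all features) and 6 in Kc (30.0%), with none lower. The gene sgl, for the enzyme that makes UDP-glucuronate for the sugar chains of proteoglycans, rose in both lines. It stood at 1.86, 1.43 and 0.76 in Cy5 and at 1.45 and 1.14 in the swaps of DmD8, and between 0.34 and 0.92 on the Kc arrays. The estimates were 1.32 ± 0.14 in DmD8 and 0.62 ± 0.12 in Kc (limma, adjusted p = 0.000174 and 0.00683), and sgl passed in all 36 pairings in DmD8 and in 30 in Kc. In Kc the proteoglycan gene Cow (0.93 ± 0.13), the lysyl oxidase gene Loxl1 (0.70 ± 0.09) and Sulf1, for a sulfatase that acts on heparan sulfate, (0.39 ± 0.08) rose as well (limma, adjusted p = 0.00192, 0.000367 and 0.0117). Of these, Sulf1 did not pass by number order (adjusted p = 0.11).

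Of 16 other cell recognition and septate junction genes, 2 rose and 2 fell in DmD8 (25.0%), and 4 rose and 3 fell in Kc (43.8%). In DmD8 trn, for a leucine-rich repeat surface protein, was at 0.88 ± 0.18 and kirre, for a myoblast attractant of the immunoglobulin type, at 0.53 ± 0.11 (limma, adjusted p = 0.0231 and 0.0129). Gli, for gliotactin of tricellular junctions, was at -0.65 ± 0.09 and sns, for the partner of kirre on fusing myoblasts, at -0.54 ± 0.10 (adjusted p = 0.00159 and 0.00812). In Kc the claudin genes sinu (-0.78 ± 0.08) and kune (-0.64 ± 0.11) and the septate junction gene Tsf2 (-0.45 ± 0.07) fell, and rst, a relative of kirre, rose (0.56 ± 0.10; limma, adjusted p = 0.000122, 0.00325, 0.00227 and 0.00394). By number order kirre and sns did not pass in DmD8 (limma, adjusted p = 0.0899 and 0.159), nor Tsf2 and rst in Kc (adjusted p = 0.0586 and 0.0631). In sinu the swaps were lower than the Cy5 arrays in both lines.

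Markers of cell types could be read only as ratios, since the arrays give no level of a gene within a line. The lines' identities were therefore not checked. The shares called on these lists of 6 or 7 genes stand beside 7.24% of all features in DmD8 and 11.9% in Kc. Of 7 tested hemocyte markers none passed in DmD8 (limma; 1 had an unadjusted p under 0.05), and 3 rose in Kc: ush (0.74 ± 0.08), Hml (0.66 ± 0.16) and srp (0.52 ± 0.07; limma, adjusted p = 0.000174, 0.0242 and 0.000723), or 42.9% of the list. By number order Hml did not pass (limma, adjusted p = 0.133). The other tested hemocyte markers, eater, Pxn, gcm and crq, did not pass in Kc. Laminin and Tig are known products of hemocytes. Of 6 muscle progenitor markers twi and Him rose in DmD8 (33.3%) and zfh1 in Kc (16.7%), and twi did not pass by number order (limma, adjusted p = 0.0566). Of 6 disc epithelial markers 1 fell in DmD8 (16.7%), and 1 rose and 1 fell in Kc (33.3%). These are Gli, cora and sinu, which are also on the septate junction list, as is Nrx-IV, so their calls are counted in both. The part of these shifts in the adhesion and matrix genes was not tested, and a change in the mix of cells and a change in RNA per cell cannot be told apart.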

How the data were processed

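Transcript ratios were measured on 2-colour long-oligonucleotide arrays. The authors deposited 1 log ratio per probe and array, used here as if log2. The range of the values (-3.35 to 6.51) does not settle the base. Per the labels, spots were quantified with Dapple. Background correction, normalization, spot filters, log base and direction: not given in the sources used here. Array medians lay between -0.13 and 0.16. The number of arrays limits the precision. Of 16 deposited columns 11 were distinct: 71019 pairs of values of the DmD8 experiments were compared and 24 were not identical.

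Probes were named from the platform annotation (12658 with 1 symbol, 96 with several, 4504 with none), probes of 1 gene were averaged, and a feature was tested if, in each line, at least 3 arrays held a value for it and both orientations were among them. A single limma fit (version 3.58.1, R 4.3.3) covered 12952 features and all 11 arrays. It was tested on simulated data with independent noise on every array, which cannot show the effect of arrays that share RNA. Each line had its own mean and its own dye term, and adjusted p-values under 0.05 (Benjamini-Hochberg) were called. Figures were drawn with matplotlib 3.10.9. Members and lists were chosen with earlier results of these data known. All members could be named; from each other list and line, at most 4 genes past the threshold with the largest absolute log ratio were named. Alternatives covered centring, the sign of the swaps, the dye term, filters, array weights, left-out arrays, separate fits and averaged swaps; averaging by number and leaving the unpaired DmD8 array without a dye term were chosen after seeing the data. Over deviations from the orientation mean, swap 4 correlated best with array 1, 5 with 2 and 6 with 3 (r = 0.26 to 0.41). DmD8 had 2 swaps, whose deviations mirror each other (with array 1, r = 0.26 for swap 4 and -0.26 for swap 5). The DmD8 matches are therefore not separate.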

Additional observations from a re-analysis of the deposited data

Results flagged for a closer look

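The differences between the lines passed the test for Reck, at 1.23 for DmD8 minus Kc, and for wb, at 0.56. In the first, the Kc values had opposite signs in the dye orientations. In the second, 1 Kc array had no value. For both, the comparison RNA of DmD8 may have had EDTA and that of Kc had none, which cannot be told apart from the line. Of 63 sets of values of a gene in a line that were looked at for a stray array, 2 had one, where chance gives about 1 in 20. They were stck, for the adaptor PINCH, at 0.17 on DmD8 array 5 against -0.01 to 0.03 on the others, and Cad87A, at -0.74 on Kc array 2 against 0.13 to 0.37 on the others. Over all arrays the Cad87A difference of -0.62 between the lines did not pass (limma, adjusted p = 0.0708, and 0.186 by number order). It passed under no pairing of the swaps. Without Kc array 2 the difference became -0.78 and passed (limma, adjusted p = 0.00435). That array was picked out for its value, which lay toward those of DmD8, so leaving it out cannot test the difference.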

How the results depend on the processing

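The counts rest on treating arrays as replicates. Averaging swaps by number took features past the threshold to 209 in DmD8, 290 in Kc and 176 in the difference (196, 248 and 164 with no dye term), against 938, 1542 and 1415 over arrays, and members to 2, 0 and 0 (3, 0 and 0 with no dye term), against 6, 8 and 2. Under every pairing 64, 238 and 100 features passed (172, 196 and 135 with no dye term), with members at 0, 0 and 0 (3, 0 and 0). With the sign of the swaps turned, a reading in which E(spl)m3-HLH in Kc, at 3.92 to 4.55 on all 6 arrays, would be a dye term, 2211, 2592 and 0 features passed (752 of the difference at an unadjusted p under 0.05), and 0 members in the difference (2 unadjusted); the means then were, in DmD8, mew -0.21, Ilk 0.33, Vinc -0.27, Pax -0.22, p120ctn 0.31 and ed 0.27, and in Kc mew -0.11, Ilk 0.40, Vinc -0.26, Pax -0.24, CadN -0.79, alpha-Cat -0.05 and LanB1 -0.04. With no dye term 456, 655 and 505 features passed, 3 members in Kc and 0 in the difference (7 unadjusted). With Cy5 arrays only, 192 features and 0 members passed in the difference (5 unadjusted), and CadN in Kc was -0.78. Centring each array left 4 Kc members and moved the share of higher calls to 52.4% in DmD8, 52.4% in Kc and 53.9% in the difference, against 42.5%, 59.6% and 40.4%. Each line fitted alone gave 552 features in DmD8, 5 Kc members and a call for Cad87A in DmD8 (-0.49, adjusted p = 0.0256). Without Kc arrays 2 and 5 the counts were 899 features in Kc and 871 in the difference, with 3 and 1 members. A minimum of 1 array per orientation left 1 member in the difference. Leaving out 1 array gave 406 to 885 features and 3 to 5 members in DmD8, 941 to 1334 and 4 to 9 in Kc, and 765 to 1268 and 1 to 3 in the difference. Features moved by over 1.5 times without DmD8 array 1 (610), 2 (591), 4 (406) or 5 (547) in DmD8, Kc array 4 (941) in Kc and DmD8 array 4 (765) in the difference. Members did without DmD8 array 1 or 5 (3) in DmD8, Kc array 1 or 4 (4) or 2 or 5 (5) in Kc, and DmD8 array 1, 2, 4 or 5 or Kc array 1, 4 or 5 (1) in the difference. With the replicate number as a block across the lines 513 features and 2 members passed in the difference, Reck and kug (-0.81, adjusted p = 0.0377) but not wb (adjusted p = 0.0643); same-numbered arrays of the lines did not pair (r from -0.30 to 0.12 over deviations from the orientation means). For these changes the cause was not tested. Signal over background could not be judged from ratios.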
